A study of Mus musculus with 25 samples.

Results

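The RNA of 10 genes that mark the primitive endoderm or build its basement membrane was followed in mouse 2-cell embryos and blastocysts. They were the transcription factors Gata6, Gata4 and Sox17, the receptor Pdgfra, the endocytic genes Dab2 and Lrp2, and the matrix genes Lamb1, Col4a1, Col4a2 and Sparc. The genes were chosen by name, with earlier results of these data known. Each symbol matched 1 of the 24708 gene loci in the tables, so that all 10 were found.

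The primitive endoderm is the epithelium that forms on the cavity side of the inner cell mass of the late blastocyst, and it later gives the visceral and parietal endoderm of the yolk sacs. In the inner cell mass, FGF signalling from epiblast precursors favours GATA6 over NANOG, and cells that keep GATA6 go on to express SOX17, GATA4 and the PDGF receptor PDGFRA. The epithelium takes up maternal material through the megalin receptor (Lrp2) and its adaptor Dab2, and it lays down a sheet of laminin and type IV collagen, to which SPARC binds.

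The study asked how stress in the early embryo, and the gene Fzr1 in particular, bears on later growth and metabolism. Fzr1 encodes Cdh1, an activator of the anaphase-promoting ubiquitin ligase. All embryos were of the BDF1 strain. The 2-cell embryos, labelled embryonic day 1.5, came as 3 genotype labels with 2 libraries each. These were WT, IVF (embryos of in vitro fertilisation) and sIVF, which the labels do not spell out. The blastocysts, labelled embryonic day 4.0, were 3 libraries labelled Fzr1-OE and 2 labelled Control. The sources used here do not give how overexpression was achieved, how many embryos made up a library or how Control embryos were conceived.

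Levels are FPKM, fragments scaled to the length of the transcript and to all mapped fragments, which can be set against each other between genes because they are per length. Depth was implied from the confidence bounds in the files, read as counting error alone, and may be understated. It ran from 4742698 to 6377606 fragments per 2-cell library and from 9324167 to 10483442 per blastocyst library. Libraries of a stage correlated at r of 0.839 to 0.881 (2-cell) and 0.967 to 0.981 (blastocyst), across loci and not as independent points. Fzr1 itself stood at 12.7, 15.5 and 17.1 FPKM in the libraries labelled Fzr1-OE and at 16.5 in either Control library. The log2 difference was -0.13 (SE 0.16, limma adjusted p = 0.713), so RNA counted at the Fzr1 locus was not higher under that label. Whether an overexpressed transcript would be counted at that locus could not be tested here. Marker genes of cumulus and granulosa cells summed to at most 3.92 FPKM in any 2-cell library and to at most 0.705 in any blastocyst library. Those of fibroblasts and blood cells summed to at most 7.957 FPKM in any 2-cell library (sIVF) and 7.805 in any blastocyst library (Control). Nothing in the labels ties the replicates to separate cultures or matings, so every p-value measures no more than the spread among these libraries, part of which may be technical.

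Promoter windows of the 250 bases before a RefSeq start site (GRCm38.p6) were read for 7 of the 10 genes, with 2 start sites for Dab2, which made 8 windows. Gata6, Gata4 and Sox17 had no entry. Both strands were searched for GATAA, the core letters bound by GATA factors, for ACAAT, a core of SOX motifs, and for GGGCGG, the core of the GC box. GATAA was present in 1 of the 8 windows, that of the first Dab2 start site, 178 bases before the start, against 22.6% of all 32851 windows of that length. ACAAT was in 0 of the 8 (27.7% of all windows) and GGGCGG in 3 of the 8 (32.7% of all windows), namely those of Lamb1, Col4a2 and Lrp2. Shown are the only window with a GATAA match and the windows of the laminin chain and the endocytic receptor with GC boxes. They run 5′ to 3′ on the gene's strand, and capitals mark GATAA or GGGCGG on either strand.
Dab2 (plus strand, chr15:6299539-6299788): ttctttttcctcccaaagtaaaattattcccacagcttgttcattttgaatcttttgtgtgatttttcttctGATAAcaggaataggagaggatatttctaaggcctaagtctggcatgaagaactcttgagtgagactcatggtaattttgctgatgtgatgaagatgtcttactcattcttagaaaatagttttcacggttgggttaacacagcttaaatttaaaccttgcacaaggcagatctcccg
Lamb1 (plus strand, chr12:31265043-31265292): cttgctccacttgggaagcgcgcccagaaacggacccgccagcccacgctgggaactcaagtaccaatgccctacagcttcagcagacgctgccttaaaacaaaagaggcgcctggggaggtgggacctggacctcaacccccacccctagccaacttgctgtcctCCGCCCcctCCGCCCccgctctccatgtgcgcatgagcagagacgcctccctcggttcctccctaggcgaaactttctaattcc
Lrp2 (minus strand, chr2:69586030-69586279): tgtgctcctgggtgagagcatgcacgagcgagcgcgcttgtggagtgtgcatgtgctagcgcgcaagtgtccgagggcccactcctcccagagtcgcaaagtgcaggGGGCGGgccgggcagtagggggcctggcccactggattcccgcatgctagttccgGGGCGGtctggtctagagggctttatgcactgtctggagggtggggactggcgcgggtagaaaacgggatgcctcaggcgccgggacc
A match is a description of the letters in the window and says nothing about binding in these embryos.

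In the mm9 coordinates of the files the 10 loci lie on 9 chromosomes. Gata6 spans chr18:11052508-11085633, Gata4 chr14:63817752-63864097 and Sox17 chr1:4481009-4487435. Pdgfra spans chr5:75548316-75594229, Dab2 chr15:6249789-6390709 and Lrp2 chr2:69262392-69424124. Among the matrix genes, Lamb1 spans chr12:31950159-32014504 and Sparc chr11:55207661-55233582. Col4a1 (chr8:11198423-11312826) and Col4a2 (chr8:11312829-11449287) are neighbours with 2 bases between them.

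In blastocysts all 10 genes had RNA in all 5 libraries, and their levels spanned a wide range. Dab2 was far above the others, with a lowest value of 173, a median of 183 and a highest of 195 FPKM over the 5 libraries. Lrp2 (17.4 to 28.3), Gata6 (12.2 to 26.1) and Sparc (15.5 to 19.2) came next, and their ranges overlapped, so their order is not resolved. Sox17 followed at 4.48 to 5.22, Lamb1 at 2.21 to 7.82, Pdgfra at 2.17 to 3.88 and Col4a1 at 1.74 to 2.50, each overlapping its neighbour in that order. Col4a2 (0.741 to 1.26) and Gata4 (0.339 to 1.33) were lowest and overlapped as well. Gata4 rested on 18.9 to 71.5 implied fragments per blastocyst library, Dab2 on 2624 to 3027. Over all 5 libraries the coefficient of variation ran from 4.4% for Dab2 to 59.1% for Gata4.

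**Figure D1:**
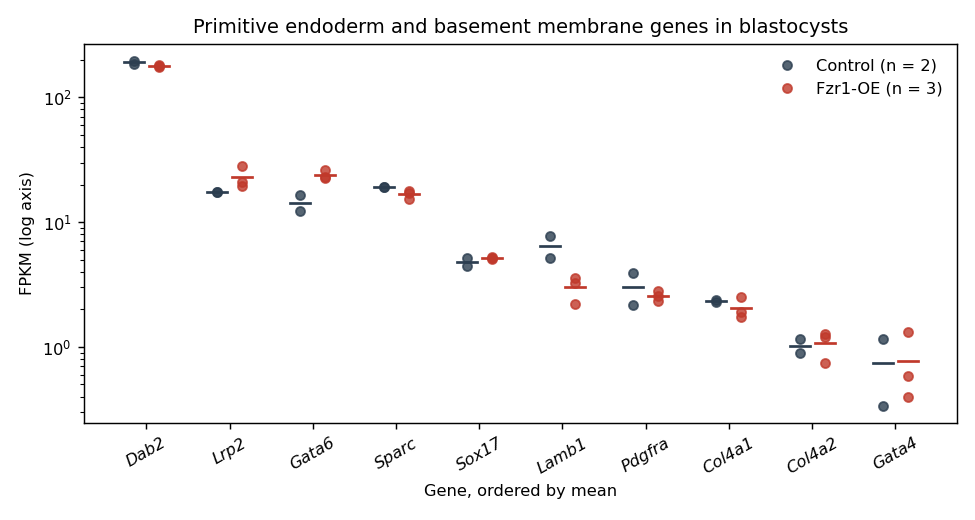
FPKM (log axis) of the 10 genes in each Control (2) and Fzr1-OE (3) blastocyst library, one point per library, with short lines at the group means. Dab2 lies between 173 and 195 FPKM in all 5 libraries, and the groups stand apart for Gata6, Lamb1, Lrp2, Sparc and Dab2.

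The label of the set was checked against lists of lineage genes, which were also chosen with earlier results of these data known. Of 8 transcription factors of the primitive endoderm, Gata6, Sox17 and Cebpa had a mean of at least 1 FPKM in blastocysts. Foxa2, a factor of the later visceral endoderm, was listed at 0 in all 5 blastocyst libraries. Other visceral endoderm genes did have RNA in Control blastocysts, Apoe at 252 ± 34.8 and Apoa1 at 51.5 ± 2.88 FPKM (SD, n = 2 each). Of the 12 visceral endoderm genes listed, 9 had a mean under 1 FPKM in blastocysts. Nanog (epiblast) and Krt18 (trophectoderm) were also high in the same libraries, Krt18 at 3864 ± 5.89 (SD, n = 2) FPKM in Control and 2393 ± 75.1 (SD, n = 3) in the libraries labelled Fzr1-OE. The libraries are of whole blastocysts, in which fewer cells of a type and less RNA per cell cannot be told apart.

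Set against Control, the libraries labelled Fzr1-OE had more Gata6 RNA, while no other of the 10 genes passed the test. Lamb1 had the largest difference in the other direction and did not pass. Sox17, Pdgfra, Col4a1 and Col4a2 overlapped between the groups. Of the 10 genes, 9 had a mean of at least 1 FPKM and were tested, and 1 was higher and 0 were lower at a limma adjusted p under 0.05. Over all 9439 loci tested 4.21% were called, 2.29% as higher and 1.92% as lower. The groups did not overlap for 5 of the 9 genes, beside 37.4% of all loci. The median log2 fold change of the 9 genes was -0.09, with 4 positive and 5 negative, beside 0.005 over all loci tested.

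Gata6, the factor whose loss leaves the inner cell mass without primitive endoderm, stood at 23.2, 22.6 and 26.1 FPKM in the libraries labelled Fzr1-OE and at 16.4 and 12.2 in Control. The lowest of the 3 was above the higher Control library. The log2 fold change was 0.72 (SE 0.16, 95% interval 0.36 to 1.07, limma adjusted p = 0.0386), from a mean of 14.3 ± 2.91 (SD, n = 2) to 24.0 ± 1.84 (SD, n = 3). The call did not survive the loss of any library. The limma adjusted p became 0.0642, 0.0837 and 0.119 without Fzr1-OE replicates 1, 2 and 3, 0.0509 without Control replicate 1 and 0.259 without Control replicate 2. The fold change stayed positive throughout, at 0.52 without Control replicate 2 and 0.91 without Control replicate 1. The limma adjusted p was also above 0.05 with no filter on low values (0.166), with no intensity trend (0.158) and with all 11 libraries in the fit (0.629).

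Sox17, an HMG-box factor that follows Gata6 in the lineage, was level across the libraries, at 5.14, 5.22 and 5.08 FPKM in Fzr1-OE and 4.48 and 5.13 in Control. Its log2 fold change was 0.08 (SE 0.20, 95% interval -0.36 to 0.53, limma adjusted p = 0.871). The ratio of Gata6 to Sox17 FPKM was 4.51, 4.33 and 5.13 in the libraries labelled Fzr1-OE and 3.65 and 2.39 in Control. Gata4, the related zinc finger factor, was below the level tested, at 0.589, 1.33 and 0.400 FPKM against 1.15 and 0.339. Its groups overlapped, and without the filter on low values the difference was 0.03 (SE 0.33, limma adjusted p = 0.984). Cebpa, a leucine zipper factor on the list of primitive endoderm factors, read 1.11, 2.73 and 2.91 FPKM in Fzr1-OE and 6.66 and 5.12 in Control. Its groups were apart, with a log2 difference of -1.13 (SE 0.31, limma adjusted p = 0.0779), and it was picked after its values were seen. Of the 8 factors listed 3 were tested, with 1 higher and 0 lower.

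The ratio of Gata6 to Nanog, the epiblast factor that it opposes, was 0.513, 0.455 and 0.527 in the libraries labelled Fzr1-OE and 0.380 and 0.316 in Control. Nanog itself stood at 45.3, 49.6 and 49.5 FPKM against 43.0 and 38.8 (log2 fold change 0.23, SE 0.11, limma adjusted p = 0.277). Both genes were thus higher in each of the 3 libraries than in either Control library, and the ratio was higher as well. This ratio was chosen after its values were seen and was not tested.

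Trophectoderm genes differed between the same libraries. Of 19 listed, 18 were tested, and 0 were higher and 8 were lower in the libraries labelled Fzr1-OE, beside 2.29% of all loci tested that were higher and 1.92% that were lower. The median log2 fold change of the 18 was -0.58, beside 0.005 over all loci, and 3 of the estimates were positive. Krt18 and Krt8, the keratins of the outer epithelium, and Plac1, a placental gene, had the smallest p, and Plac1 had a log2 fold change of -1.46 (limma adjusted p = 1.93e-04, SE 0.10). The summed FPKM of the list was 4195 to 4283 in Fzr1-OE and 6661 to 6850 in Control, and no tested gene of the list was at 0. Krt18 and Krt8 made up most of that sum, with means of 2393 and 989 FPKM in Fzr1-OE and 3864 and 1507 in Control. Of 15 epiblast genes, all tested, 1 was higher, Spic with a log2 fold change of 0.88 (limma adjusted p = 8.54e-04, SE 0.09), and 0 were lower. Spic RNA was more abundant at the 2-cell stage, with means of 370 FPKM in WT and 76.5 in Control blastocysts. From WT to Control its log2 fold change was -2.26 (SE 0.17, limma adjusted p = 5.93e-06). In that comparison 14 genes of the list were tested, with 9 higher and 2 lower. Whether the Spic difference between the blastocyst groups reflects epiblast cells was not tested. The part of these lineage genes in the Gata6, Lrpap1 and Lamb1 differences was not tested.

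Pdgfra, the receptor of PDGF ligands on primitive endoderm cells, read 2.31, 2.55 and 2.78 FPKM in Fzr1-OE and 2.17 and 3.88 in Control. The 2 Control libraries lay on either side of the other 3. The log2 fold change was -0.15 (SE 0.26, 95% interval -0.74 to 0.44, limma adjusted p = 0.821), and it was 0.16 without Control replicate 2.

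The endocytic genes lay apart between the groups by small amounts and in opposite directions. Dab2, the clathrin adaptor that internalises megalin, read 173, 179 and 183 FPKM in Fzr1-OE and 195 and 186 in Control. All 3 values were below both Control values, but the log2 fold change of -0.09 (SE 0.07, 95% interval -0.25 to 0.07) had a limma adjusted p of 0.534. Lrp2, megalin itself, read 28.3, 20.8 and 19.6 against 17.5 and 17.4 FPKM. Its log2 fold change was 0.36 (SE 0.17, 95% interval -0.02 to 0.74, limma adjusted p = 0.284), and 0.20 without Fzr1-OE replicate 1, the highest library.

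Among 12 surface and endocytic genes of the primitive endoderm, 7 were tested, 0 were higher and 1 was lower, beside 2.29% and 1.92% of all loci. That gene was Lrpap1, the chaperone that keeps megalin and related receptors free of ligand on their way to the surface. It fell by 0.33 on the log2 scale (SE 0.06, limma adjusted p = 0.0120), from 641 ± 10.3 (SD, n = 2) to 509 ± 8.32 (SD, n = 3) FPKM. Megalin and its chaperone thus had estimates of opposite sign, of which only the chaperone's passed the test.

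The basement membrane genes were mostly lower in the libraries labelled Fzr1-OE by their estimates, and none passed the test. Of 14 structural genes 11 were tested, and 0 were called in either direction at a limma adjusted p under 0.05. An unadjusted p under 0.05 was reached by 2 of them (19.7% of all loci). The estimate was negative for 9 and positive for 2, with a median of -0.27 beside 0.005 over all loci. The groups did not overlap for 6 of the 11, all of them lower in Fzr1-OE, beside 18.4% of all loci that were lower without overlap. The summed FPKM of the list was 38.8 to 39.6 in Fzr1-OE and 50.7 to 52.4 in Control. In the same libraries 8 of the 18 trophectoderm genes tested were lower, and their part in these differences was not tested.

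Lamb1 encodes the laminin beta chain of the early embryonic laminins. It read 3.23, 2.21 and 3.57 FPKM in Fzr1-OE and 7.82 and 5.15 in Control, so that the groups were apart. The log2 fold change was -0.89 (SE 0.26, 95% interval -1.48 to -0.31), with a limma adjusted p of 0.0931 over all loci.

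The chains that assemble with it were read alongside. Lama1, the alpha chain, stood at 0.992, 1.04 and 1.19 FPKM in Fzr1-OE and 2.68 and 2.11 in Control, also apart, with a log2 fold change of -0.71 (limma adjusted p = 0.166, SE 0.25). Lamc1, the gamma chain, overlapped at 5.74, 4.26 and 2.37 against 5.30 and 7.53, with -0.57 (SE 0.31, limma adjusted p = 0.344). Nid1, the nidogen that links laminin to collagen, read 3.64, 3.44 and 3.29 against 4.48 and 4.76, with -0.33 (SE 0.21, limma adjusted p = 0.428). These 3 are no members of the set of 10, and Lamc1 and Nid1 were picked with their values seen. The ratio of Lamb1 to Lama1 FPKM ran from 2.12 to 3.26 in Fzr1-OE and was 2.92 and 2.44 in Control, so the ratios overlapped where the levels did not. That of Lamb1 to Lamc1 was uneven within the groups, at 0.563, 0.520 and 1.51 in Fzr1-OE and 1.47 and 0.683 in Control. Neither ratio was tested.

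**Figure D2:**
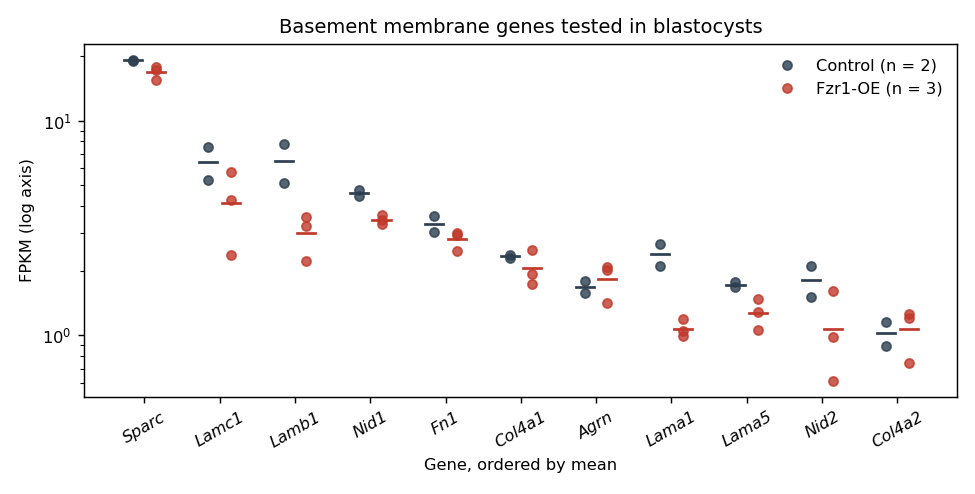
FPKM (log axis) of the 11 basement membrane genes tested, one point per blastocyst library, with short lines at the means of Control (2 libraries) and Fzr1-OE (3 libraries). For Lamb1, Lama1 and Nid1 every Fzr1-OE point lies under both Control points, while Col4a1 and Col4a2 overlap, and no gene of the 11 passed the test.

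The collagen chains differed less. Col4a1 read 1.74, 1.92 and 2.50 FPKM in Fzr1-OE and 2.30 and 2.36 in Control, with a log2 fold change of -0.13 (SE 0.25, 95% interval -0.69 to 0.42, limma adjusted p = 0.832). Col4a2 read 0.741, 1.21 and 1.26 against 0.895 and 1.15, with 0.03 (SE 0.28, 95% interval -0.60 to 0.65, limma adjusted p = 0.972). The intervals leave room for differences of either sign. In every blastocyst library Col4a1 was above Col4a2, by 1.59-fold to 2.35-fold in Fzr1-OE and by 2.57-fold and 2.05-fold in Control. The type IV collagen molecule they form holds more Col4a1 chains than Col4a2 chains.

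Sparc, the secreted collagen-binding glycoprotein, read 15.5, 17.7 and 17.1 FPKM in Fzr1-OE and 19.0 and 19.2 in Control. All 3 were below both Control libraries, and the log2 fold change of -0.18 (SE 0.14, 95% interval -0.49 to 0.13) had a limma adjusted p of 0.531. Of the 12 collagen chaperones and modifying enzymes matched, 11 were tested and 0 were called by limma, with 2 at an unadjusted p under 0.05, a share near the 19.7% of all loci. P4hb, the disulfide isomerase subunit of prolyl hydroxylase, had the smallest p, at 99.0 ± 2.13 (SD, n = 3) against 78.0 ± 4.66 (SD, n = 2) FPKM (log2 fold change 0.34, SE 0.09, limma adjusted p = 0.0608). Of 12 receptors of the basement membrane 7 were tested and 0 were called by limma, with 2 at an unadjusted p under 0.05, beside the same 19.7%.

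**Figure D3:**
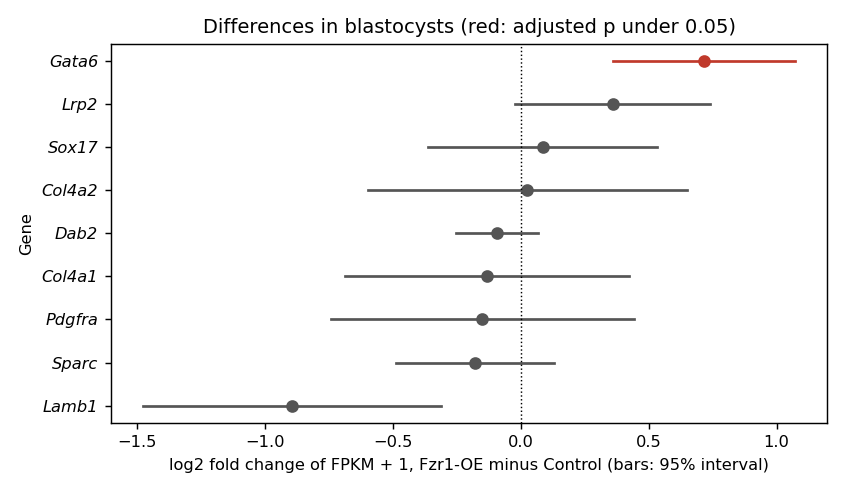
Log2 fold changes of FPKM + 1, Fzr1-OE minus Control, for the 9 genes tested, with 95% intervals. The interval of Gata6 runs from 0.36 to 1.07 and that of Lamb1 from -1.48 to -0.31, while the other 7 intervals include 0.

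Signalling genes around the choice of primitive endoderm were read from a list of 15 FGF and ERK genes. Of these 12 were tested, and limma called 0 in either direction, with 1 at an unadjusted p below 0.05, beside 19.7% of all loci. That gene was Fgfr2, an FGF receptor, at 6.77 ± 0.681 (SD, n = 3) FPKM in Fzr1-OE and 13.2 ± 5.89 (SD, n = 2) in Control (log2 fold change -0.80, SE 0.25, limma adjusted p = 0.119). Fgf4, the epiblast ligand, had a log2 difference of -0.16 (SE 0.32, limma adjusted p = 0.852). Of 12 visceral endoderm genes 3 were tested and 0 called, and of 8 parietal endoderm genes 3 were tested and 0 called by limma. In each of those lists 2 of the 3 had an unadjusted p under 0.05, as had 19.7% of all loci. Apoa1 led the visceral list at 38.7 ± 4.44 (SD, n = 3) against 51.5 ± 2.88 (SD, n = 2) FPKM (log2 fold change -0.41, SE 0.12, limma adjusted p = 0.105), and Lama1 led the parietal list.

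**Figure D4:**
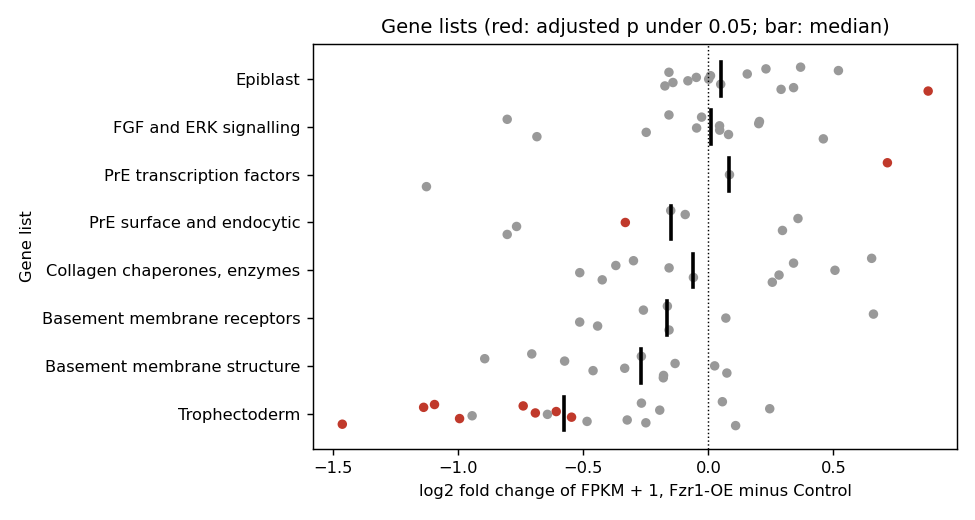
Log2 fold changes of FPKM + 1, Fzr1-OE minus Control, of the tested genes of 8 lists (PrE, primitive endoderm), one point per gene, red where the adjusted p was under 0.05, with a black bar at the median. The median is -0.27 for basement membrane structural genes and -0.58 for trophectoderm genes, and Gata6 is the red point among the primitive endoderm transcription factors.

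Between the stages, 7 of the 8 genes tested were higher in Control blastocysts than in WT 2-cell embryos, and Gata4 was the exception. At the 2-cell stage most of the set was at or near 0. Pdgfra and Col4a2 were listed at 0 in all 6 libraries of 2-cell embryos. Gata6, Sox17, Col4a1, Sparc and Lrp2 were above 0 in 1 of the 6 libraries each, at no more than 0.309 FPKM. Of the genes tested, Gata6, Sox17, Pdgfra, Sparc and Lrp2 thus passed the filter only through their blastocyst values. The filter left them no direction but higher, so their count and p-values are no separate support for it. Dab2 and Lamb1 had 2-cell means of 1.54 and 0.957 FPKM over 6 libraries. These too needed their blastocyst values to reach a mean of 1 FPKM over all 11. Their calls as higher are therefore no separate support either. The fit over all 11 libraries called 45.8% of 9762 loci as higher and 19.6% as lower in this comparison, with a median over all loci of 0.88. After quantile normalization that split was 2987 higher and 2836 lower, and after upper-quartile scaling 3014 and 2760, beside 4472 and 1909 on the deposited values. None of the 8 genes changed direction under either. Gata6, Sox17, Pdgfra, Sparc and Lrp2 were at 0 in both WT libraries, and either method leaves such values lowest. Their direction was thus set beforehand, and only Gata4, Dab2 and Lamb1 could have changed. Strain was shared, but stage, depth and library set cannot be told apart here.

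Among the transcription factors, Gata6 went from 0 in either WT library to 16.4 and 12.2 FPKM in Control blastocysts (limma adjusted p = 2.58e-06), and Sox17 from 0 to 4.48 and 5.13 (2.75e-05). Pdgfra went from 0 to 2.17 and 3.88 FPKM (limma adjusted p = 2.23e-04), Lrp2 from 0 to 17.5 and 17.4 (2.44e-06) and Sparc from 0 to 19.0 and 19.2 (1.47e-06). No fold is given for these 5, since WT libraries were listed at 0, and the filter had fixed their direction.

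Dab2 and Lamb1 already had RNA at the 2-cell stage, though they passed the filter only with their blastocyst values. Dab2 read 4.12 and 0.0757 FPKM in WT and 195 and 186 in Control blastocysts, a log2 fold change of 6.35 (limma adjusted p = 2.05e-05, SE 0.58), or 5.47 above the median of all loci. Lamb1 read 0.829 and 0 in WT and 7.82 and 5.15 in Control blastocysts, with 2.44 (SE 0.36, limma adjusted p = 3.82e-04), or 1.56 above that median. In the libraries labelled Fzr1-OE its lowest value, 2.21, lay under the highest 2-cell value, 2.50 in IVF. Col4a1 and Col4a2 had means under 1 FPKM over the 11 libraries and were not tested. Without the filter their log2 differences were 1.74 (SE 0.16, limma adjusted p = 1.08e-04) and 1.01 (SE 0.14, limma adjusted p = 8.67e-04).

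Gata4 ran the other way. It read 9.23 and 3.90 FPKM in WT, 2.74 and 8.50 in sIVF and 7.06 and 6.96 in IVF 2-cell embryos, on 108 to 400 implied fragments. In blastocysts it stood at 0.339 to 1.33 FPKM in all 5 libraries, so the stages did not overlap. The log2 fold change from WT to Control was -2.06 (SE 0.53, limma adjusted p = 0.00751), or -2.94 relative to the median of all loci. The limma adjusted p was 0.0510 without WT replicate 1 and 0.0616 without Control replicate 2, with fold changes of -1.53 and -1.72. At the 2-cell stage Gata4 was thus the only factor of the 3 with RNA in every library, and in blastocysts it was the lowest of them.

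**Figure D5:**
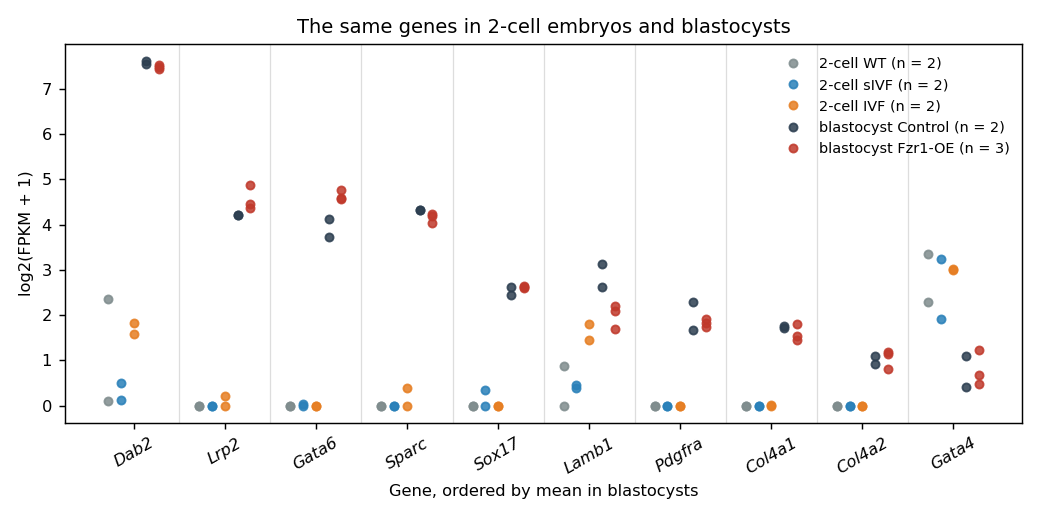
log2(FPKM + 1) of the 10 genes in the 6 libraries of 2-cell embryos (WT, sIVF and IVF, 2 each) and the 5 blastocyst libraries, one point per library. Gata4 lies higher in all 6 libraries of 2-cell embryos than in any blastocyst library, and the other 9 genes lie higher in every Control blastocyst library than in any 2-cell library.

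The other genes of the matrix and its assembly were read in the same contrast, in which 45.8% of all loci tested were higher and 19.6% lower. Genes near 0 in all 2-cell libraries could be tested only through their blastocyst values, so that higher was the only direction open to them. Of the 14 structural genes 6 were tested, with 5 higher and 0 lower in Control blastocysts. Sparc, Nid1 and Lamc1 had the smallest p, Nid1 going from 0.0464 ± 0.0656 to 4.62 ± 0.200 FPKM (SD, n = 2 each). Of 11 collagen chaperones and enzymes tested 8 were higher and 0 lower, led by Serpinh1 (HSP47, the collagen chaperone of the endoplasmic reticulum), which was listed at 0 in WT and stood at 3.97 ± 0.652 (SD, n = 2) in Control blastocysts. Of 6 receptors tested 3 were higher and 0 lower, a share of higher genes near that of all loci, with Itgb1, the shared beta chain of laminin and collagen receptors, going from 1.52 ± 1.16 to 15.4 ± 2.03 FPKM (SD, n = 2 each). Lrpap1 went from 8.02 ± 9.77 to 641 ± 10.3 FPKM (SD, n = 2 each; log2 fold change 6.79, SE 0.73, limma adjusted p = 5.22e-05). Of the 4 primitive endoderm factors tested 3 were higher (Gata6, Sox17 and Cebpa) and Gata4 was lower.

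The 2-cell comparisons set the labels WT, IVF and sIVF against each other at a stage before the lineage exists. Only Gata4 and Dab2 reached a mean of 1 FPKM over the 6 libraries, and limma called 0 of the 2 in each of the 3 comparisons, with 0 at an unadjusted p under 0.05. Few loci were called at all. The share was 0.0121% of 8246 loci for IVF against WT, 0.0% for sIVF against WT and also 0.0% between sIVF and IVF, while 12.4%, 7.09% and 11.8% had an unadjusted p under 0.05. The comparisons share libraries and are given side by side.

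For Gata4 the log2 fold change was 0.18 for IVF against WT (95% interval -1.29 to 1.65, limma adjusted p = 0.950), -0.25 between sIVF and WT (-1.72 to 1.22, 0.960) and -0.43 between sIVF and IVF (-1.90 to 1.04, 0.844). The 2 libraries of WT differed from each other by more than the means of any 2 groups.

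Dab2 was uneven among the 2-cell libraries, at 4.12 and 0.0757 FPKM in WT, 0.0899 and 0.411 in sIVF and 1.99 and 2.55 in IVF. The highest and lowest of the 6 were the 2 WT libraries, 54.4-fold apart, on 198.7 and 2.4 implied fragments. IVF lay above sIVF without overlap, as did 42.7% of all loci in either direction, with a log2 fold change for sIVF minus IVF of -1.39 (SE 0.89, limma adjusted p = 0.604). It was 0.47 for IVF against WT (SE 0.89, limma adjusted p = 0.888) and -0.92 for sIVF against WT (SE 0.89, limma adjusted p = 0.835).

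Lamb1 was the only matrix gene of the set with more than 0.309 FPKM in any 2-cell library. It read 2.50 and 1.75 FPKM in IVF, 0.303 and 0.363 in sIVF and 0.829 and 0 in WT. IVF thus lay above the other 4 libraries without overlap. Of the loci that passed the filter, 42.2% did not overlap between IVF and WT in either direction. That share is for 1 pair of groups and does not include Lamb1. Its mean of 0.957 FPKM was under the filter. Without the filter the log2 difference was 1.20 for IVF against WT (SE 0.47, limma adjusted p = 0.581) and -1.22 for sIVF against IVF (SE 0.47, limma adjusted p = 0.584). The IVF libraries had the highest summed basement membrane FPKM at this stage, 4.93 to 5.64 against 0.142 to 3.40 in WT and 0.375 to 2.47 in sIVF. That sum includes Lamb1, with its 2.50 and 1.75 FPKM in IVF, and is no separate observation.

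The loci nearest in profile over the 5 blastocyst libraries were found for the 5 genes with a mean of at least 5 FPKM, by the root mean square difference of centred log2(FPKM + 1) among 5862 loci. Nearest to Gata6 were Vhl (0.056), Sp140 (0.067) and Tmeff1 (0.075). Dab2 was nearest to Sec61g, Hnrnpm and Ezh2, Sparc to Ecd, Alg9 and Flad1, and Lrp2 to Ublcp1, Dnajc3 and Atp13a3. None of the 5 had another of the 5 among its nearest 3. Sparc was the 315th nearest locus to Dab2, and Dab2 the 215th nearest to Sparc. Seen from Gata6, the other 4 ranked between 1197 and 4080, with Lrp2 the closest. These distances describe 5 libraries of 2 groups and carry no test.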

How the data were processed

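Of the 25 samples of the series, the 11 RNA libraries of embryos were used. H3K9me3, input, fat and RRBS samples were not analysed here. The authors deposited FPKM per gene with confidence bounds, per the file headers. Per the submitters' processing notes, mm9 was the build, and the tools included Cufflinks 2.2.1, Cuffdiff and HISAT2 2.1.0, without roles. Groups came from sample titles.

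limma 3.58.1 (R 4.3.3, intensity trend, two-sided) was run on log2(FPKM + 1). Loci entered a fit where their mean over its libraries was 1 FPKM or more, and p-values were Benjamini-Hochberg adjusted over all loci tested at a threshold of 0.05. The 5 blastocyst libraries, the 6 libraries of 2-cell embryos and, between stages, all 11 libraries had a fit each. Fold changes on this scale understate the change of low genes. Depth was taken from the deposited bounds as if they were 2 standard deviations of a count, which is not the spread between libraries. The bounds may hold more than counting error. Dab2 implied 198.7 fragments at 4.12 FPKM in WT replicate 1 and 2624 at 173 FPKM in Fzr1-OE replicate 1, fewer per FPKM at greater depth. Implied fragments and depth may therefore be understated. Under 40 implied fragments, 46.2% to 50.8% of a library's values came within 0.05 of a whole number, and no count test was made. The script was tested on simulated data.

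The 10 genes and the 12 lists (147 genes) were chosen with earlier results of these data known. Named were all 10 genes, up to 3 called genes per list and direction, or the one of smallest p, Fzr1, and the 3 loci nearest in profile (those of Sox17 are not reported here). Other genes were named after their values were seen. The alternatives were other pseudocounts, filters, scalings, variance settings, fits, the replicate block and leaving out each library. Promoter windows came from RefSeq (GRCm38.p6).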

Additional observations from a re-analysis of the deposited data

How the results depend on the processing

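Of 361 alternative values for single genes, 340 kept their direction and their side of the threshold, 11 kept the direction and lost the call, and 10 changed sign. These include the values between stages of Gata6, Sox17, Pdgfra, Sparc and Lrp2, whose direction the filter had fixed. The count of 340 is therefore no measure of how stable the results are. In blastocysts the number of the 10 genes called was 0 instead of 1 with no filter on low values, with no intensity trend, with all 11 libraries in the fit, and without each library in turn (0 to 0). The limma adjusted p of Gata6 ran from 0.0246 to 0.629. With the replicate block it was 0.194, and 0 of the genes were called. Same-numbered libraries did not deviate together (r of -0.039 and 0.027 in blastocysts and of -0.003 to 0.074 in 2-cell embryos), so the numbers were not taken as a pairing.

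The count over all loci, 397, was 0 with no filter, 41 with no intensity trend, 47 with the replicate block, 9 with all 11 libraries in the fit and 87 to 350 without 1 library (87 and 177 without Control replicates 2 and 1, 185 and 210 without Fzr1-OE replicates 3 and 2). In 2-cell embryos a filter of 5 FPKM gave 21 calls for IVF against WT in place of 1, and 32 for sIVF against IVF in place of 0, which quantile normalization made 14. Between stages 4 of the 10 genes were called with the filter of 5 FPKM, in which fewer genes are tested, and 6 to 9 without 1 library.

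None of the values that changed sign had passed the test. In blastocysts, leaving out a library moved Pdgfra from -0.46 to 0.16 (the latter without Control replicate 2) and Col4a2 from -0.067 (without Control replicate 1) to 0.14, with -0.026 without Fzr1-OE replicate 2 and -0.043 with the replicate block. For IVF against WT, Gata4 ran from -0.35 to 0.71 and Dab2 from -0.65 to 1.60, both lowest without WT replicate 2. For sIVF against WT, Gata4 ran from -0.92 to 0.42 (highest without sIVF replicate 1, and 0.28 without WT replicate 1) and Dab2 from -2.04 to 0.20 (highest without WT replicate 1). Between sIVF and IVF, Gata4 ran from -1.10 to 0.25 (highest without sIVF replicate 1). The cause was not tested. At 1 FPKM the deposited bounds span 26.9% to 32.6% on either side over all 11 libraries. In blastocyst libraries they span 26.9% to 29.0%, which limits Col4a2 and Gata4 there.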
